A study of Mus musculus with 2 samples.

Results

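The genes described here are 32 members of the machinery for fatty acid oxidation and of the genes that answer to the receptor PPAR-alpha, chosen by symbol from known function and found through the RefSeq accession of each array probe. These genes and the further lists below were chosen with earlier results of these data known. All 32 had at least 1 named probe, out of 22911 genes with a named probe, and all 32 were well above background on both arrays, out of 13743 genes measured on both. The RNA came from regulatory T cells (Tregs) sorted from kidneys of mice on day 28 after induction of cGN, a kidney injury raised with antibody to the basement membrane of the glomerulus (anti-GBM). The sort took T cells that carried CD45, CD3e, CD4 and the FoxP3-hCD2 reporter, which displays human CD2 on cells that express Foxp3. The sample labels give the anti-GBM antibody as M or I, and these are called lots here. Array 2 holds Tregs after anti-GBM lot M and array 1 holds Tregs after anti-GBM lot I, by the labels of the scanner outputs. Apart from the lot, the labels give both arrays the same induction, day, tissue and sort. The sample titles number the 2 arrays as replicates of kidney Tregs after cGN induction and do not name the lot. The strain, age and number of mice are not given in the sources used here.

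Each lot has 1 array, so there was no replicate spread and nothing could be tested. Levels are log2 of the background-corrected signal over the 75th percentile of the array, and a level of one gene cannot be set against that of another because probes differ in brightness. Every difference is array 2 minus array 1 on this log2 scale, with the error of the measured spots from the scanner's error model, which holds no variation between mice. The deposited value table puts the same measurements under the other lot, so that which array belongs to which lot is not settled, and the arrays are named by number. A positive difference thus means higher after lot M by the scanner outputs and higher after lot I by the value table. About the same share of probes was well above background on array 2 (53.98%) and on array 1 (54.02%). The scanner's own quality summary asked for an evaluation of array 2, where the metric for the detection limit failed, and called array 1 in range. This bears on dim probes such as those of Pdk4 and Ppara, and its part in their differences was not tested.

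Fatty acids enter oxidation as coenzyme A (CoA) esters. The carnitine shuttle moves them into mitochondria, where a repeating spiral of dehydrogenation, hydration, dehydrogenation and thiolytic cleavage releases acetyl-CoA, while peroxisomes shorten very long chains. PPAR-alpha is a nuclear receptor that fatty acids activate and that, paired with RXR, raises many of these genes in liver, heart and the proximal tubule of the kidney, a segment that runs mainly on fatty acids. Tregs also express mitochondrial oxidation enzymes, so that RNA of T cells and RNA of tubular cells can both contribute to these probes.

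Most of the 32 genes were close to equal on the arrays. Their median difference was 0.12 (1.09-fold), against 0.01 over all genes measured, and 25 members were higher in array 2, where 53.8% of all genes were higher. Pdk4 and Acot1 were 2-fold or more higher in array 2, against a background of 1.34% of all genes. No member was 2-fold or more lower, against a background of 0.0873%. At 1.5-fold Ehhadh joined them, for 3 members higher (background 5.16%) and 0 lower (background 0.815%). By over 2 spot errors 6 members were higher (background 7.90%) and 0 were lower (background 2.29%). Within 1 spot error of 0 lay 20 of the 32 members, against 9817 of all 13743 genes.

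Markers of the nephron and of macrophages were mostly higher in array 2 as well, while endothelial markers went both ways. Of 17 genes that mark the proximal tubule, 17 were measured on both arrays and 16 were higher in array 2 (background 53.8%), and the median was 1.08. Their summed signal was 177.7 on array 2 and 87.1 on array 1, in units of the 75th percentile, and no defining marker was below background. Their largest differences were those of the glucose transporter gene Slc5a2 (1.59), the phosphate transporter gene Slc34a1 (1.196) and the endocytic receptor gene Lrp2 (1.199). Distal nephron markers had a median of 0.59 over 11 of 12 genes, led by Aqp2 (1.60), Pvalb (1.41) and Atp6v1g3 (0.77) and with Scnn1b below background on both arrays, with summed signals of 133.4 on array 2 and 98.9 on array 1. Macrophage and monocyte markers had a median of 0.30 over 12 of 12 genes, led by Adgre1 (0.46), C1qc (0.42) and Apoe (0.41), with sums of 48.0 and 39.3 on arrays 2 and 1. Endothelial markers had a median of 0.04 over 6 of 8 genes, with differences of -0.43 for Cdh5, 0.34 for Plvap and 0.27 for Emcn. T cell identity genes had a median of -0.01 over 12 of 13 genes and sums of 1023.5 and 1021.8 on arrays 2 and 1, with Cd247 at -0.15, Cd3e at 0.11 and Lck at -0.10. Treg genes had a median of -0.02 over 11 of 11, with Foxp3 at -0.17, Lrrc32 at -0.16 and Il2ra at 0.12. Of 7 adipocyte markers only Lep was measured on both arrays (0.08), while Adipoq, Plin1, Cidec, Cidea, Retn and Cfd were not well above background on either. The part of these other cells in the members' differences was not tested, and in bulk RNA more cells of a type and more RNA per cell cannot be told apart.

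The genes of activation and the carnitine shuttle were slightly higher in array 2 in 4 of 5 cases (median 0.23, background 53.8% higher). Acsl1, a synthetase that loads long-chain fatty acids onto CoA, stood at 0.19 on array 2 and -0.11 on array 1, and its 2 probes differed by 0.25 and 0.36. Cpt1a, the rate-controlling transferase of the outer mitochondrial membrane, read 3.55 on array 2 and 3.34 on array 1, a difference of 0.21 ± 0.20. Cpt2, which releases the acyl group inside the mitochondrion, stood at 0.25 on array 2 and 0.02 on array 1, and both of its probes differed by nearly the same amount (0.24 and 0.22). Slc25a20, the carrier that exchanges acylcarnitine for carnitine across the inner membrane, was the exception, at -0.19 on array 2 and -0.08 on array 1 (difference -0.11 ± 0.21). Crat, which makes and uses short-chain carnitine esters, read 1.06 on array 2 and 0.78 on array 1. A further, dim Crat probe was well above background on array 2 only, and its difference of 0.37 ± 0.49 was within its spot error. Only Acsl1 (0.31 ± 0.15) exceeded 2 spot errors among these genes. Acsl1 lay inside the range of -0.32 to 0.78 that held the central 95% of genes within 0.5 of its mean level. The others lay inside theirs as well.

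The enzymes inside the mitochondrion differed little and in both directions. Over the 15 genes of the spiral, the auxiliary enzymes and the electron transfer proteins, the median difference was 0.03. Of these genes 9 were higher (background 53.8%) and 6 lower in array 2. Within 1 spot error of 0 lay 13 of them, against 9817 of all 13743 genes. The first step is shared by acyl-CoA dehydrogenases for different chain lengths. Acadvl, for very long chains, stood at 5.26 on array 2 and 5.15 on array 1. Acadl, for long chains, stood at 3.05 on array 2 and 3.14 on array 1. Acadm, for medium chains, stood at 3.41 on array 2 and 3.17 on array 1. Acads, for short chains, stood at 2.51 on array 2 and 2.55 on array 1. Neither direction prevailed, since Acadvl and Acadm were higher in array 2 and Acadl and Acads lower, and only Acadm (0.24 ± 0.20) exceeded 1 spot error.

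The trifunctional protein carries out the later steps on long chains, and Hadha and Hadhb encode its subunits. Hadha stood at 0.87 on array 2 and 1.04 on array 1 (difference -0.17 ± 0.20, the lowest of the 32 genes). Hadhb stood at 2.86 on array 2 and 2.93 on array 1 (difference -0.07 ± 0.14), with both probes near this value. The genes lie head to head. Their promoter windows of 300 bases, as RefSeq places them on GRCm38.p6, overlap by 228 bases, at chr5:30154931-30155230 for Hadha on the minus strand and chr5:30155003-30155302 for Hadhb on the plus strand. For shorter chains the same steps fall to the hydratase Echs1, the dehydrogenase Hadh and the thiolase Acaa2. Echs1 stood at 1.42 on array 2 and 1.39 on array 1, a difference of 0.03 ± 0.14. Hadh stood at 2.997 on array 2 and 2.72 on array 1, a difference of 0.28 ± 0.20 and the largest of these 15. Acaa2 stood at 4.56 on array 2 and 4.36 on array 1, a difference of 0.20 ± 0.20, the same as its error.

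Double bonds of unsaturated fatty acids are rearranged by the isomerases Eci1 and Eci2 and by the reductase Decr1. Eci1 had 3.96 on array 2 and 3.95 on array 1, Eci2 had 3.10 on array 2 and 3.19 on array 1, and Decr1 had 4.28 on array 2 and 4.22 on array 1, all within 1 spot error. Electrons of the first dehydrogenation pass to the flavoprotein subunits Etfa and Etfb and on to the respiratory chain through Etfdh. Etfa stood at 2.66 on array 2 and 2.67 on array 1, and its 3 probes differed by 0.04, -0.03 and -0.05. Etfb stood at 5.08 on array 2 and 4.94 on array 1, with 0.14 and 0.12 for its probes. Etfdh stood at 2.71 on array 2 and 2.68 on array 1. Of 10 alternatives run on single genes, Eci1 changed sign under 5 and Echs1 and Etfdh under 2 each, spike-in scaling among them. Eci2, Decr1, Etfa and Etfb kept their signs under all 10.

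**Figure D1:**
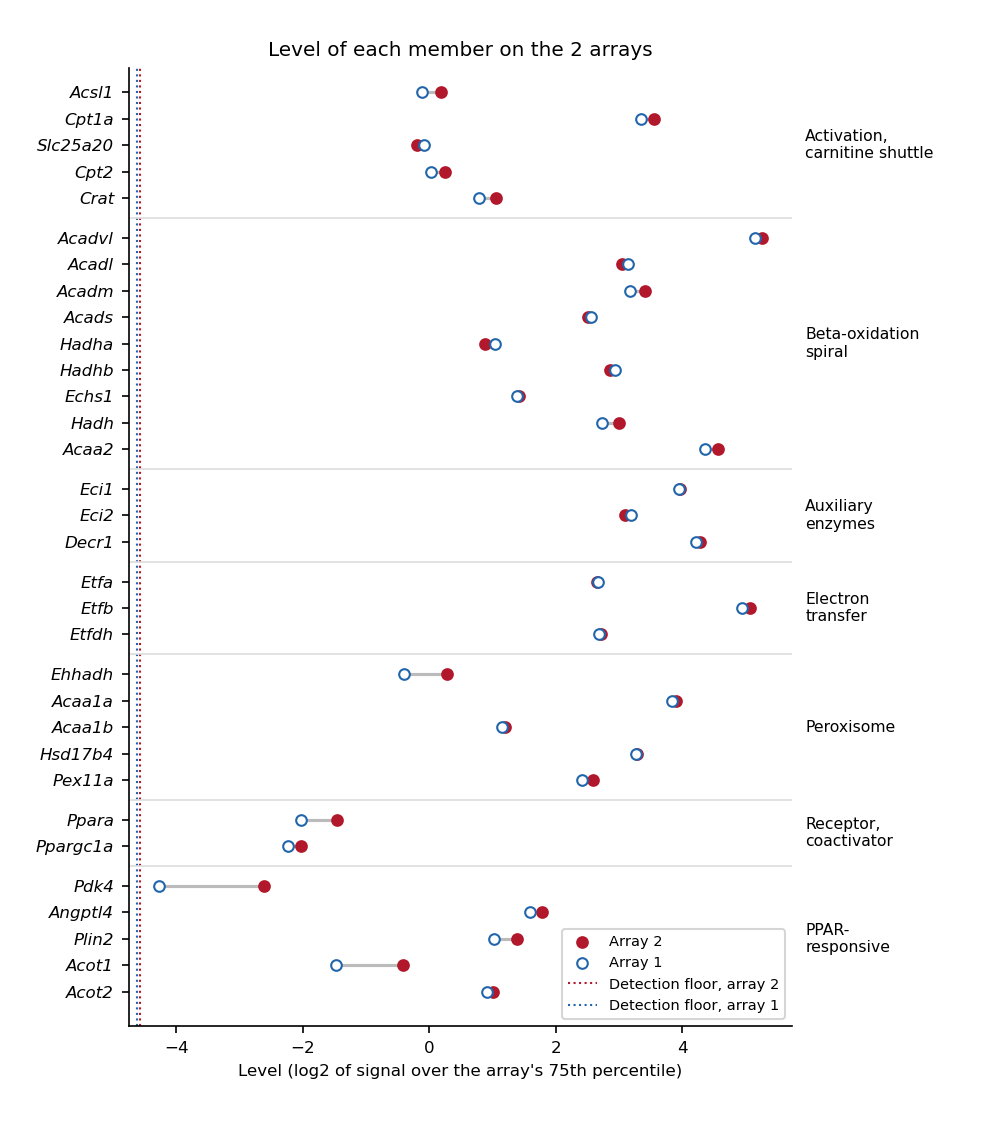
Level of each of the 32 members on array 2 (filled red) and array 1 (open blue), as log2 of signal over the 75th percentile of the array, with the role of each gene at the right and dotted lines at the detection floors (-4.58 on array 2 and -4.62 on array 1). The points of the mitochondrial enzymes nearly coincide, whereas those of Pdk4, Acot1, Ehhadh and Ppara stand apart, and Pdk4 on array 1 lies close to the floor; levels of different genes cannot be compared.

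Among the peroxisomal genes Ehhadh stood apart from the other 4. Ehhadh, the bifunctional hydratase and dehydrogenase of the peroxisome and a classical PPAR-alpha target, had a processed signal of 339.3 on array 2 and 216.1 on array 1. Its level was 0.28 on array 2 and -0.40 on array 1, a difference of 0.68 ± 0.21 (1.60-fold) from 1 probe. Of all genes measured, 534 had a larger difference, and Ehhadh lay inside the range of -0.31 to 0.78 that held the central 95% of genes within 0.5 of its mean level. Hsd17b4, which does the same chemistry on branched and very long chains, stood at 3.28 on array 2 and 3.26 on array 1. The thiolase gene Acaa1a stood at 3.90 on array 2 and 3.84 on array 1, and its paralogue Acaa1b, which is abundant in liver and kidney, at 1.197 on array 2 and 1.15 on array 1. The coding sequences of this pair are closely similar, and probe sequences were not analysed here, so the split of signal between them is uncertain. Pex11a, which promotes division of peroxisomes, stood at 2.59 on array 2 and 2.42 on array 1. All 5 genes were higher in array 2 (background 53.8%), but Hsd17b4 (0.02), Acaa1b (0.04), Acaa1a (0.06) and Pex11a (0.17) were each within 1 spot error of 0. The sign of Acaa1b turned under spike-in scaling only, and that of Hsd17b4 under 3 of 10 alternatives (normexp, no scaling and spike-in scaling).

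The receptor and its coactivator were dim. Ppara, which encodes PPAR-alpha, had a processed signal of 101.2 on array 2 and 69.9 on array 1 on its brighter probe, or levels of -1.47 and -2.03, a difference of 0.57 ± 0.21 (1.48-fold). Its other probe was well above background on array 2 only, with raw median signals of 54.0 on array 2 and 38.5 on array 1 over local backgrounds of 25 and 27. With array 1 set at its detection floor, that probe read 1.66-fold higher in array 2, and its spot error was 0.65 in log2. It passed the flag only on the array where it was higher, so its direction adds no support. Ppargc1a, which encodes the coactivator PGC-1 alpha that drives mitochondrial and oxidative genes, had 2 probes that disagreed. The brighter had levels of -0.83 on array 2 and -1.26 on array 1 (difference 0.43 ± 0.21) and the dimmer had -3.23 on array 2 and -3.21 on array 1 (difference -0.02 ± 0.27). The mean of the probes was 0.20, and it was 0.43 when the stricter filter on dim probes or the brightest probe was used.

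The largest differences were found among the PPAR-responsive genes, all 5 of which were higher in array 2 (median 0.36, background 53.8% higher). Pdk4 encodes the kinase that shuts pyruvate dehydrogenase and so turns cells from glucose towards fatty acids as fuel. Its single probe had a processed signal of 45.9 on array 2 and 14.7 on array 1. The raw median signals behind them were 75 on array 2 and 47.0 on array 1, over local backgrounds of 28.0 and 29.5. Pdk4 was therefore close to the detection limit on array 1, with a level of -4.28 there against a floor of -4.62, and -2.61 on array 2. The difference was 1.67 ± 0.33 (3.18-fold), and 14 of all genes measured had a larger one. Among the 1118 genes within 0.5 of its mean level, 6 differed by as much, Pdk4 included, and the central 95% of them lay between -0.75 and 1.21. Normexp background correction, which compresses dim signals, gave 0.52, and the stricter filter on dim probes removed the gene.

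Acot1 encodes a cytosolic thioesterase that frees fatty acids from CoA and is strongly raised by PPAR-alpha agonists in mouse liver. Its probe had a processed signal of 209.2 on array 2 and 102.9 on array 1, levels of -0.42 and -1.47. The difference was 1.05 ± 0.21 (2.08-fold), above the central 95% of genes of like level (-0.38 to 0.85). Scaling by the spike-in controls put it just under 2-fold (0.998), and normexp gave 0.78. Acot2, the mitochondrial thioesterase, is the neighbouring protein-coding gene of Acot1 with no other between them and has a closely similar coding sequence. Acot2 had a processed signal of 562.6 on array 2 and 538.8 on array 1, levels of 1.009 and 0.92, and a difference of 0.09 ± 0.20. The 2 neighbours thus differed unequally between the arrays on these probes, whose sequences were not analysed here.

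Of the other responsive genes, Plin2 and Angptl4 had smaller differences. Plin2, which coats lipid droplets in most cell types, had levels of 3.32 on array 2 and 2.91 on array 1 on its brighter probe and of -0.56 and -0.86 on the dimmer. The probes differed by 0.41 and 0.30 (mean 0.36 ± 0.15, 1.28-fold), over 2 spot errors. This mean lay inside the central 95% of genes of like level (-0.25 to 0.58). Angptl4, a secreted inhibitor of lipoprotein lipase, stood at 1.78 on array 2 and 1.60 on array 1, a difference of 0.19 ± 0.20 and within its error.

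**Figure D2:**
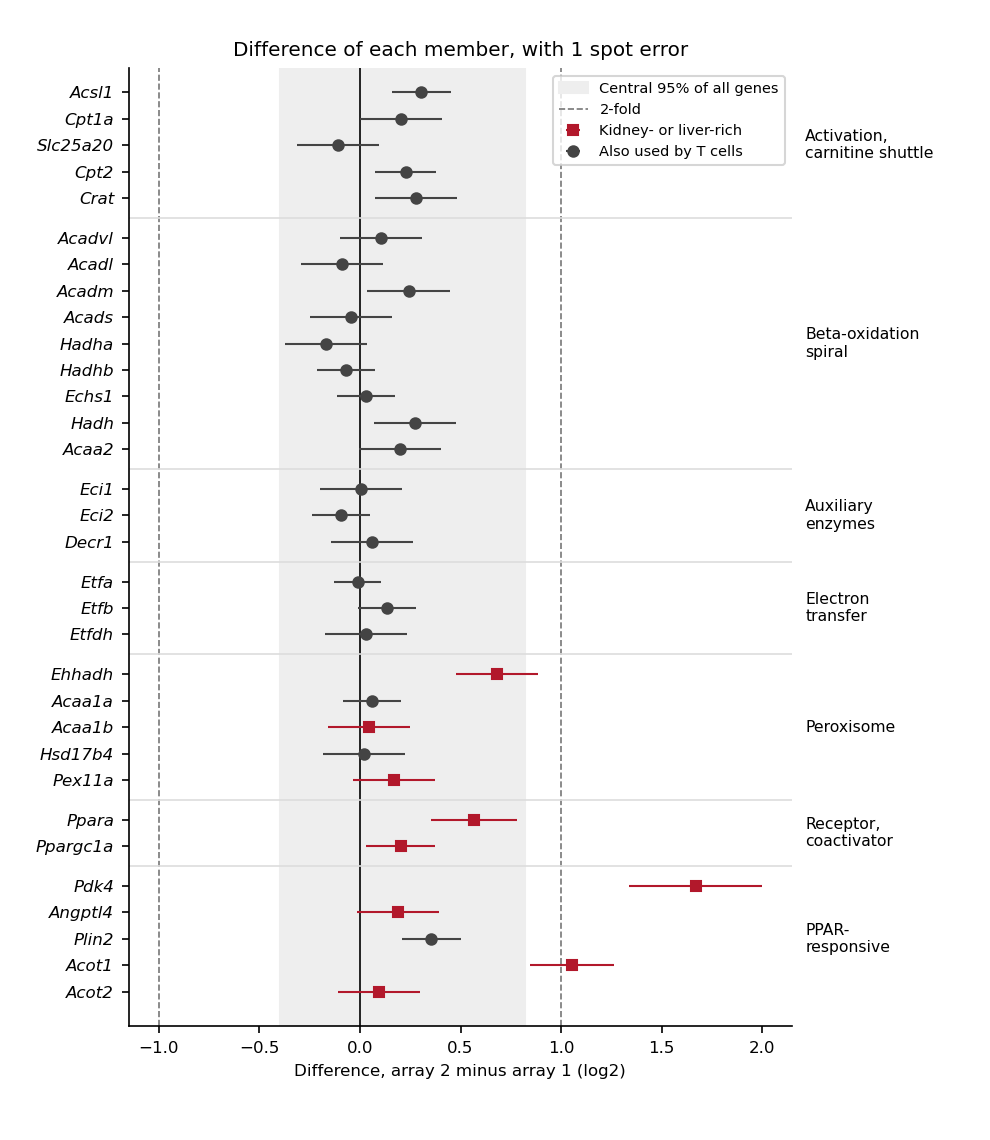
Difference of each member, array 2 minus array 1 on the log2 scale, with bars of 1 spot error; red squares are the 9 genes counted as rich in kidney or liver, dark circles the 23 also used by T cells, and the grey band holds the central 95% of all genes measured (-0.40 to 0.82). Pdk4 (1.67) and Acot1 (1.05) lie beyond the band and the dashed 2-fold line, and the other 30 members lie inside the band.

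PPAR-alpha is known to act by binding direct repeats near its target genes. Promoters are shown for the 2 members with the largest differences, Pdk4 and Acot1. That of Plin2 is shown as an example of a window with a match. Ehhadh and Ppara, with larger differences than Plin2, are not printed. RefSeq promoter windows (GRCm38.p6) run from 250 bases before to 50 bases after the annotated start and were held for 27 of the 32 genes, in 28 windows. They are printed 5′ to 3′ on the strand of the gene, and capitals mark a match to the repeat with at most 2 mismatches. The windows are chr6:5496229-5496528 on the minus strand for Pdk4, chr12:84009252-84009551 on the plus strand for Acot1 and chr4:86670010-86670309 on the minus strand for Plin2.
Pdk4: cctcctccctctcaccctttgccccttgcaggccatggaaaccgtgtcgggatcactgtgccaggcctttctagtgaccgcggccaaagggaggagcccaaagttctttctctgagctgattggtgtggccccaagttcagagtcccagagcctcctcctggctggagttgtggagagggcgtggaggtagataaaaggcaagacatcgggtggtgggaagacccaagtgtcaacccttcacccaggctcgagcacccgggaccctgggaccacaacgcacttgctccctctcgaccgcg
Acot1: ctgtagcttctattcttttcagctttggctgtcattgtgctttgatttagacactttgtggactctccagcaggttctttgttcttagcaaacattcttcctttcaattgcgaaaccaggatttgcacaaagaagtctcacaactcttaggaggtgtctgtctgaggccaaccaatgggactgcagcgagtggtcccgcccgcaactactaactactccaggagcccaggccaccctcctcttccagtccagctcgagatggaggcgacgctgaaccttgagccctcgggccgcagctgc
Plin2: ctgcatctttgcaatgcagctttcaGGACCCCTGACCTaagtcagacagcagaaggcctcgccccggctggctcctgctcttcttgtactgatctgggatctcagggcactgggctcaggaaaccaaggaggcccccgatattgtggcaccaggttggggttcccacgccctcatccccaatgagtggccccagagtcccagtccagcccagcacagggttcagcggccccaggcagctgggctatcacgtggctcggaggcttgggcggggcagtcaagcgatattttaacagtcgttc

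The motif searched was the direct repeat AGGTCANAGGTCA on both strands. With at most 2 mismatches it was found in 4 of the 28 member windows, those of Echs1, Etfa, Plin2 and Slc25a20, and in 3.86% of all 32851 promoter windows of the same length. The matches, in the orientation of each gene, were these.
Echs1: AGGTCACGGGTCC
Etfa: TTACCTTTGCCCT
Plin2: GGACCCCTGACCT
Slc25a20: AGGTGAAAGGTCG
An exact match was in 0 member windows and in 0.04% of all windows. The 4 genes with a match differed by 0.03, -0.01, 0.36 and -0.11, and the windows of Pdk4, Acot1, Ehhadh and Ppara held no match. A match describes letters in the window and shows no binding, and the lack of one says nothing about sites elsewhere.

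The members were also divided by where they are known to be expressed. The division was made with earlier results of these data known, so the counts below describe it and are no independent support. Of 9 genes counted as rich in kidney or liver (Ehhadh, Acaa1b, Pex11a, Ppara, Ppargc1a, Pdk4, Angptl4, Acot1 and Acot2), 9 were higher in array 2 (background 53.8%), Pdk4 and Acot1 by at least 2-fold (background 1.34%). Their median of 0.20 is the value of Ppargc1a, whose probes disagreed. Of the 23 enzymes and lipid genes that T cells also use, 16 were higher and 7 lower, none by 1.5-fold (background 5.16% higher and 0.815% lower), with a median of 0.06 and a range of -0.17 to 0.36. The kidney- or liver-rich genes were themselves uneven, since Acaa1b, Acot2, Pex11a and Angptl4 lay within 1 spot error of 0. The median of the 9 was below that of the proximal tubule markers (1.08), whose summed signal, as given above, was higher in array 2, and the part of tubular RNA in it was not tested. It was 0.31 under the stricter filter on dim probes and 0.43 with the brightest probe of each gene, both of which leave out the dim probe of Ppargc1a and put that gene at 0.43.

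Other genes of the pathway were taken from 6 further lists of 136 genes, 120 of them measured on both arrays. In these lists 87 genes (72.5%) were higher in array 2 and 33 lower, against 53.8% higher over all genes. By 2-fold or more 7 were higher (background 1.34%) and 0 lower (background 0.0873%), and the median was 0.08, against 0.01 over all genes. For fatty acid uptake and binding, 7 of 10 measured genes were higher (median 0.20), and only Slc27a2, a transporter and very long chain synthetase of the proximal tubule, reached 2-fold (1.18 ± 0.20). Among ketone body and other PPAR target genes 18 of 21 measured genes were higher (median 0.19). In that list 6 reached 2-fold, namely Vnn1, a pantetheinase (1.37 ± 0.30), Fads2, a desaturase (1.25 ± 0.31), Gpd1, a glycerol phosphate dehydrogenase (1.06 ± 0.20), and the fatty acid omega-hydroxylase genes Cyp4a31 (1.18 ± 0.20), Cyp4a10 (1.16 ± 0.18) and Cyp4a12a (1.12 ± 0.23). The Cyp4a genes are closely similar, so their separate values are uncertain. Fads2 (-4.05) and Vnn1 (-3.80) lay near the detection floor on array 1 (-4.62), and Cyp4a10 was dim there (-3.42). Only 1 of the 2 Fads2 probes was well above background. The alternative ways of processing below are given for single members only and not for these genes.

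The remaining lists held no gene at 2-fold, and their shares at 1.5-fold differed. Over 24 measured genes of carnitine and mitochondrial oxidation 20 were higher in array 2 (median 0.24, background 53.8% higher). Of these, 5 were higher by 1.5-fold or more (background 5.16%) and 7 by over 2 spot errors (background 7.90%). Cpt1b, the muscle form of the outer transferase, stood at -1.64 on array 2 and -2.40 on array 1 (difference 0.75 ± 0.22), against 0.21 for Cpt1a. Of 33 measured peroxisomal genes 24 were higher (median 0.07), 3 of them by 1.5-fold or more. The other PPAR and RXR receptor genes measured differed by 0.05 ± 0.20 for Ppard, 0.01 ± 0.20 for Pparg, 0.02 ± 0.15 for Rxra and 0.17 ± 0.12 for Rxrb. In the same list 3 further nuclear receptor genes, named after their values were seen, were higher in array 2 by over 2 spot errors. They were Hnf4a (0.73 ± 0.20), Esrrb (0.53 ± 0.21) and Esrrg (0.44 ± 0.18). The value of Hnf4a rests on 1 of its 2 probes, since the other was well above background on array 2 only. Esrrg was dim, at -2.75 on array 2 and -3.19 on array 1. Pparg, a regulator of Tregs in adipose tissue, stood at 3.81 on array 2 and 3.80 on array 1. The 22 measured receptor and coregulator genes had a median of 0.02, and 1 of them reached 1.5-fold. The kinases related to Pdk4, the opposing phosphatases Pdp1 and Pdp2 and the subunits of the pyruvate dehydrogenase complex had a median of -0.03 over 10 genes, and none reached 1.5-fold.

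**Figure D3:**
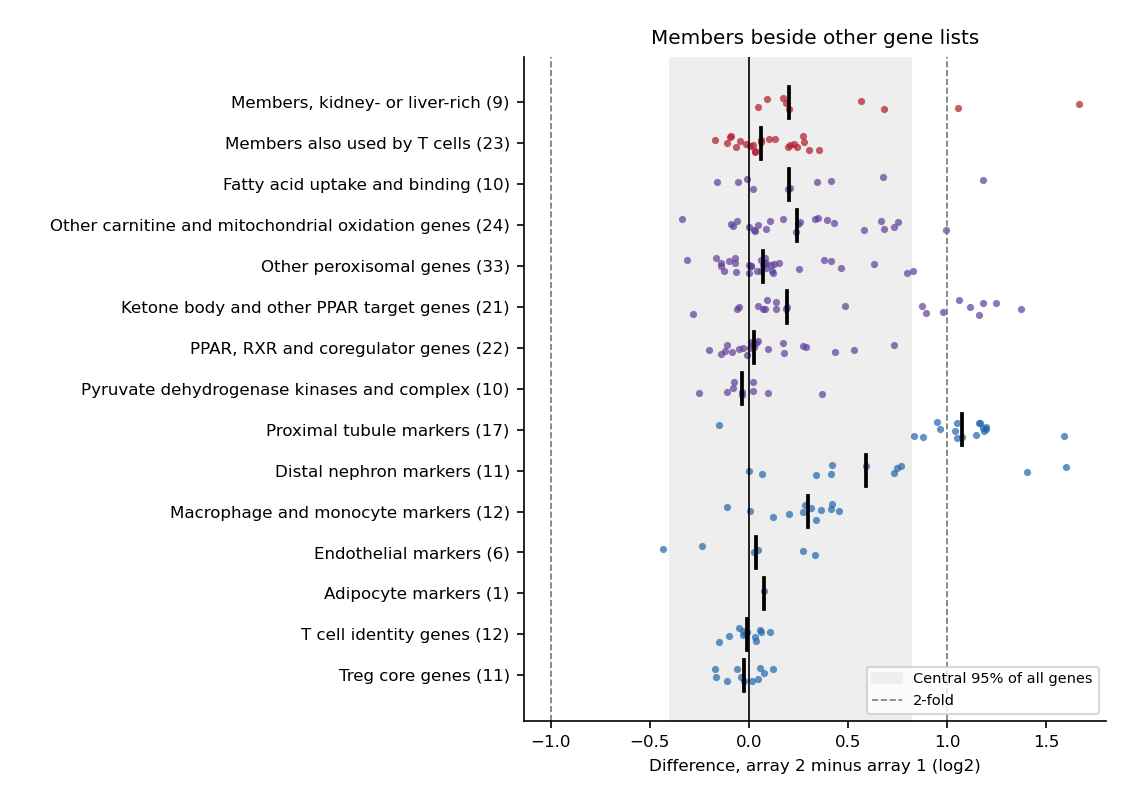
Differences of single genes, array 2 minus array 1 on the log2 scale, for the members in red, other pathway lists in purple and cell markers in blue, with the number of genes measured in brackets, a black bar at each median and the central 95% of all genes in grey. The proximal tubule markers centre on 1.08, T cell and Treg genes on -0.01 and -0.02, and the members also used by T cells on 0.06.

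Of the 10 alternative ways of processing the scanner outputs, each that measured the larger member differences kept their direction, though not always their size. Several could not turn them. The 3 scalings shift all genes by 1 constant, at most 0.0568 in size. No filter, the brightest probe and kept outliers left Pdk4 (1.669) and Acot1 (1.055), with 1 probe each, unchanged. The value table, taken by its labels, turned every sign. Ehhadh ranged from 0.51 to 0.72 and Ppara from 0.432 to 1.096, with the highest value for Ppara when its dim probe entered. Pdk4 ranged from 0.52 to 1.68 over the 9 alternatives that measured it and reached 2-fold in 8 of them. Acot1 ranged from 0.78 to 1.09 and reached 2-fold in 8 of 10. Both counts include alternatives that left the value unchanged.

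**Figure D4:**
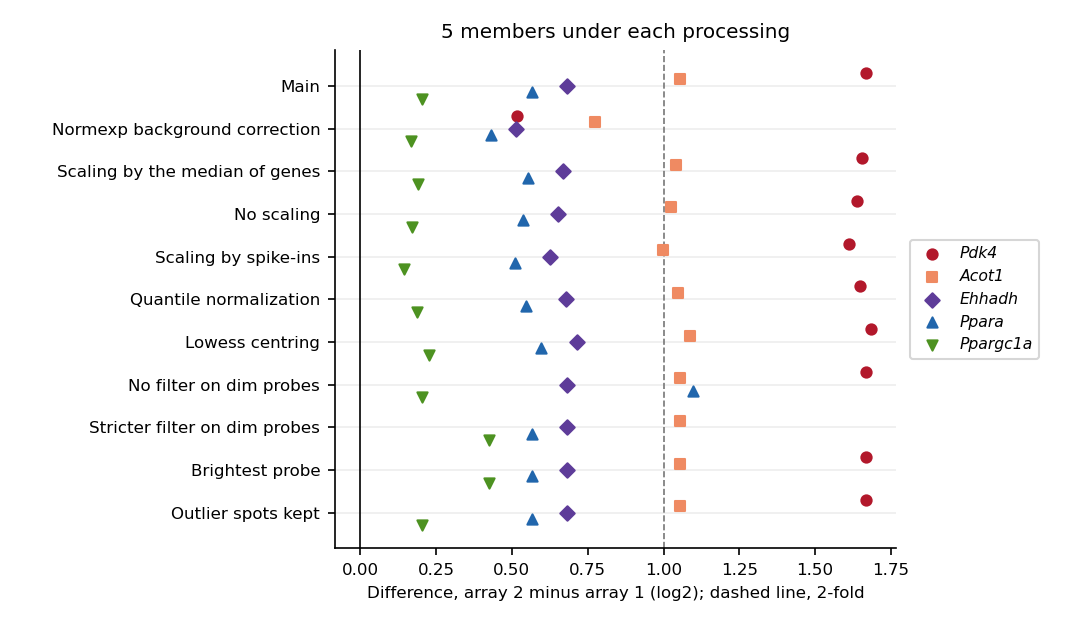
Difference, array 2 minus array 1 on the log2 scale, of 5 members under the main processing and each of 10 alternatives, with a dashed line at 2-fold. All points lie above 0, Pdk4 drops to 0.52 with normexp and has no point under the stricter filter on dim probes, and Acot1 lies below the line with normexp and with spike-in scaling.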

How the data were processed

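Cy3-labelled RNA of kidney Tregs was measured on 2 arrays of 1 colour. The authors' scanner outputs come from Agilent Feature Extraction 10.7.1.1, per the submitters' processing notes. Their processed signal, per the file headers, is an intensity, given beside raw intensities, local backgrounds and detection flags. The deposited value table holds a linear ratio and no source used here says how it was made. Among probes at a signal of 300 or more, the SD of log2 signal over value was 0.0003 and 0.0004 against the column of the other lot and of 0.156 and 0.181 against the column of the same lot.

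Control and outlier spots were left out, and log2 signals had the 75th percentile of the array subtracted. Probes were named by RefSeq accession (assembly GRCm38.p6, names only), 32994 of 56605 with 1 symbol and 23611 with none. For each gene, probes that passed the scanner's background flag on both arrays were averaged. The number of arrays limits the precision. The calculation was tested on simulated data. Members and lists were chosen with earlier results of these data known. All members were named, with pathway genes at 2-fold or more, 7 fixed pathway genes (2 of them not reported here) and up to 3 markers per list. Alternatives were normexp (limma 3.58.1, offset 50), 3 scalings, quantile, lowess (span 0.3), 2 filters, the brightest probe, kept outliers, the value table and a limit of 1.5-fold.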

Additional observations from a re-analysis of the deposited data

How the results depend on the processing

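The median difference of the members (0.12), the number higher in array 2 (25) and the number 2-fold or more higher (2) changed as follows. With the value table taken by its labels (lot M minus lot I), all 32 members had the opposite sign at nearly the same size. The medians were then -0.12 for the members, -0.201 for the kidney- or liver-rich and -0.063 for those also used by T cells, 7 members were higher, 0 were 2-fold higher and 2 were 2-fold lower. With normexp 0 members were 2-fold higher, and over all genes 28 were 2-fold higher and 0 lower, against 184 and 12. Scaling by spike-ins gave medians of 0.061 for all members and 0.004 for those also used by T cells, and 1 member at 2-fold. The stricter filter left 1 member at 2-fold, among 31 measured, and a kidney- or liver-rich median of 0.31, and the brightest probe raised that median to 0.43. No filter gave 3 members at 2-fold, Ppara the third. Of 319 values of single members under 10 alternatives, 314 stayed within the spot error of the main value. Among these alternatives, no filter and the brightest probe could not change the 20 members with 1 named probe. In 5 members, all with differences under 0.05, the sign changed. Members at bounds were not run, since 0 members were measured on 1 array only. Differences of dim probes such as that of Pdk4 are limited by signal over background.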

Other observations

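Outside the naming rule, further genes of the lists were picked after their values were seen. Of those given here only Acsm2 lay close to 2-fold. Acsm2, a medium-chain acyl-CoA synthetase abundant in kidney, stood at 3.02 on array 2 and 2.02 on array 1, and both of its probes were near its mean difference of 0.998. Acox2, an oxidase of branched chains in peroxisomes, had -1.62 on array 2 and -2.44 on array 1, and Pecr, a peroxisomal enoyl-CoA reductase, had 2.61 on array 2 and 1.81 on array 1. Acacb, whose product malonyl-CoA restrains the carnitine shuttle, was also higher in array 2 (0.73 ± 0.18), while Acaca, its cytosolic relative, differed by -0.09 ± 0.12. Hnf4a, a transcription factor of liver and proximal tubule whose difference is given above, stood at 1.56 on array 2 and 0.82 on array 1. Txnip, a regulator of glucose uptake that is high in resting lymphocytes, differed by 0.49 ± 0.14.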
